A study of Mus musculus with 16 samples.

Results

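Peroxisomes are small organelles that shorten very long-chain, branched-chain and dicarboxylic fatty acids and bile acid precursors. The transcripts of 36 mouse genes for peroxisomal oxidation and for the building of peroxisomes were followed in liver RNA-seq libraries. They were chosen by symbol and are 36 of the 55416 genes in each count file. They comprise 23 genes for enzymes, transporters and catalase and 13 peroxins (Pex genes), the proteins that build the organelle. All 36 passed the filter on low counts, among 14770 genes tested.

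The livers came from C57BL/6J wild-type mice aged 8 weeks. Each mouse received an adenovirus through the tail vein, either Ad-CTRL (a control virus) or Ad-FAT10, which overexpresses FAT10, the ubiquitin-like protein encoded by Ubd. After 4 days the mice were gavaged with pemafibrate at 1 mpk or with CMC, its vehicle, 18 h and 5 h before the livers were taken, and all were fasted for 5 h. Pemafibrate is an agonist of the nuclear receptor PPARα. The design gives 4 groups of 4 libraries, named by virus and gavage (Ad-CTRL CMC and Ad-CTRL Pema for the control virus, Ad-FAT10 CMC and Ad-FAT10 Pema for the other), and every group carries an adenovirus. It has 1 dose and 1 schedule, no group without virus, and the promoter that drives FAT10 is not given in the sources used here. The labels number the libraries n1 to n4 without saying that each is a separate mouse, so p-values measure the spread between these libraries.

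Fatty acids enter peroxisomes through half-size ABC transporters as activated acyl-CoA esters. Each round of β-oxidation then uses an acyl-CoA oxidase, a bifunctional hydratase and dehydrogenase, and a thiolase, and the shortened chains leave as carnitine esters for the mitochondria. Hydrogen peroxide made by the oxidases is broken down by catalase. Peroxins insert membrane proteins, import the enzymes after their translation in the cytosol, return the import receptors to the cytosol, and divide the organelle. PPARα pairs with RXR on DNA, and in rodent liver its agonists are known for raising peroxisomal β-oxidation genes and for increasing the number of peroxisomes.

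Library totals ran from 18663498 to 28898229 counts, so that 3 counts were worth 0.089 to 0.176 CPM (read counts scaled to a library of fixed size). The 8 hepatocyte markers were all detected in every library and together took 4.37% to 9.81% of counts. Ubd measured 8.64 to 15.2 CPM in Ad-CTRL CMC and 110.5 to 339.3 CPM in Ad-FAT10 CMC (edgeR log2 change 4.41 ± 0.39 SE, adjusted p = 4.8e-07). Among pemafibrate livers it was higher with Ad-FAT10 than with Ad-CTRL by 4.07 ± 0.38 SE (adjusted p = 8.1e-07). Ubd was also higher with pemafibrate than with CMC, by 1.30 ± 0.36 SE in Ad-CTRL livers (adjusted p = 0.00945). In Ad-FAT10 livers that rise was 0.96 ± 0.33 SE (adjusted p = 0.0413). The trimmed mean of M-values (TMM) scaling factors differed with the virus, from 0.831 to 0.929 in Ad-CTRL and from 1.06 to 1.19 in Ad-FAT10 libraries. Library totals without these factors moved the median log2 change of all genes to 0.28 under CMC and 0.34 under pemafibrate for Ad-FAT10 against Ad-CTRL, from -0.01 and -0.02. Counts and medians of the 36 genes between viruses are therefore given on both scales. For the pemafibrate comparisons the same change of scale moved the median of all genes to -0.09 in Ad-CTRL and to -0.02 in Ad-FAT10 livers, from -0.01 in both.

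The promoters of the strongest risers among enzymes and peroxins, Ehhadh, Acaa1b and Pex11a, are shown first, followed by the 2 members with a match to the PPARα-RXR element. The element is known as a direct repeat of AGGTCA spaced by 1 base, and AGGTCANAGGTCA was searched on both strands with up to 2 mismatches over its 12 defined bases. The windows run from 250 bases before to 50 bases after the transcript start (RefSeq, GRCm38.p6), 5′ to 3′ on the gene's strand, and the matched bases are in capitals. The 3 risers lie on the minus strand at chr16:21787785-21788084 (Ehhadh), chr9:119157044-119157343 (Acaa1b) and chr7:79743082-79743381 (Pex11a).
Ehhadh: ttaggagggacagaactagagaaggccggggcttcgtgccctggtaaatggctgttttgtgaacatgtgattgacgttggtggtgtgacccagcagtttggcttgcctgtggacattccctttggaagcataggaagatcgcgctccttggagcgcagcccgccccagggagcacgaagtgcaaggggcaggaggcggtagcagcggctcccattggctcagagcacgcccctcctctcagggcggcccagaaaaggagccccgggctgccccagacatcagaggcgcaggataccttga
Acaa1b: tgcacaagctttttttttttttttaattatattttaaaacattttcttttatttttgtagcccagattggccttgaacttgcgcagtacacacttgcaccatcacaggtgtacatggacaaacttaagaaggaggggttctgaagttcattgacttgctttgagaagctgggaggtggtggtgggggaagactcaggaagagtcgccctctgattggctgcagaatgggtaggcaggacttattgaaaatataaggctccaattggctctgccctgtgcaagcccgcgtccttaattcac
Pex11a: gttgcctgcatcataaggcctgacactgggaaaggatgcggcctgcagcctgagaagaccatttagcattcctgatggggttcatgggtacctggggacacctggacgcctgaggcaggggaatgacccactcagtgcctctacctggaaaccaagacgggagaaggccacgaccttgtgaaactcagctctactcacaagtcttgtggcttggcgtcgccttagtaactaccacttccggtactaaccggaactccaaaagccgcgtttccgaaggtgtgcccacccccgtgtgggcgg
The other 2 windows are those of Cat, at chr2:103485104-103485403, and of Acox2, at chr14:8258790-8259089, both on the minus strand.
Cat: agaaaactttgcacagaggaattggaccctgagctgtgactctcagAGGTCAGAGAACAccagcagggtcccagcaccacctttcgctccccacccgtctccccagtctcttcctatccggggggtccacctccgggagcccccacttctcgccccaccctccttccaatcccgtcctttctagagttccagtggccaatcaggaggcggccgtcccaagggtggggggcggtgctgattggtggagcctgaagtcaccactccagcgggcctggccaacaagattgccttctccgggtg
Acox2: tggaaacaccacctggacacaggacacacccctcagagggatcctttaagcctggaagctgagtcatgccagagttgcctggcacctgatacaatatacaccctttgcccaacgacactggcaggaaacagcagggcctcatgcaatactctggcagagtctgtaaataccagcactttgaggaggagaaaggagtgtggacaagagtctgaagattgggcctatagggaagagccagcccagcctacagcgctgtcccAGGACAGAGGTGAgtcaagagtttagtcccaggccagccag

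RefSeq windows were found for 30 of the 36 genes, 35 windows in all. A match was present in 2 of the 35 (5.71%), against 1268 of 32851 windows in the whole table (3.86%). Acox2 has another window, at chr14:8258970-8259269, without a match, and the positions given next refer to the windows printed above. In Cat the matched letters are AGGTCAGAGAACA, 204 bases before the start, and in Acox2 they are AGGACAGAGGTGA, just after it. No member window held the exact repeat, which 13 windows of the table did (0.0396%), and none of the 14 peroxin windows held a match. A match is a run of letters and not a measured binding site, and a window without one says nothing of more distant sequence.

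In Ad-CTRL livers pemafibrate raised most of the 36 genes. The largest rises were in fatty acid oxidation and carnitine transfer (Ehhadh, Acaa1b and Crat), followed by the peroxin Pex11a. By edgeR's quasi-likelihood test (Benjamini-Hochberg adjusted p under 0.05), 23 were higher and 3 lower, or 72.2%, where 30.6% of all genes tested were called in either direction. The higher calls alone covered 16.2% of all genes and the lower calls 14.4%, or 12.1% and 18.5% on library totals, where the 36 genes had 21 higher and 4 lower calls. The median log2 change was 0.69 over the 36 genes and -0.01 over all genes tested. Among them, 14 rose at least 2-fold, 12 enzymes or transporters and 2 peroxins.

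Of the 7 core β-oxidation genes, 5 rose and 1 fell. Ehhadh, the bifunctional hydratase and dehydrogenase, measured 251.4, 294.1, 245.5 and 229.0 CPM in the Ad-CTRL CMC libraries and 15070, 18840, 22540 and 18410 CPM with pemafibrate. The lowest treated library was far above the highest vehicle library, and the rise was 73.4-fold (log2 6.20 ± 0.29 SE, adjusted p = 7.62e-11). Hsd17b4, the other bifunctional enzyme, which acts on branched chains and bile acid precursors, rose 2.82-fold (1.50 ± 0.12 SE, adjusted p = 4.19e-08). The ratio of Ehhadh to Hsd17b4 CPM went from 0.496 ± 0.0533 to 12.8 ± 1.05 (SD, n = 4).

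The thiolases that cut the shortened chain did not move alike. Acaa1b stood at 726.9, 844.7, 834.1 and 708.4 CPM under CMC and at 7527, 8146, 8698 and 7727 CPM under pemafibrate. The groups did not overlap, and the rise was 10.3-fold (3.37 ± 0.18 SE, adjusted p = 2.14e-10). Its close copy Acaa1a rose 2.44-fold (1.28 ± 0.09 SE, adjusted p = 8.47e-09), and the ratio of Acaa1b to Acaa1a went from 3.19 ± 0.406 to 13.5 ± 0.607. No source used here says how reads that fit both copies were counted, which makes the split between them uncertain. Scp2, whose longer product is the thiolase for branched chains, was not called (0.13 ± 0.15 SE, adjusted p = 0.576).

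The acyl-CoA oxidases for branched chains and bile acid precursors went in opposite directions. Acox2 rose (0.47 ± 0.11 SE, adjusted p = 0.00294), and Acox3 fell by 0.47 on the log2 scale (SE 0.13, adjusted p = 0.00908).

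Of the 8 auxiliary and α-oxidation genes, 5 rose and 1 fell. The enzymes that rearrange or reduce double bonds of unsaturated chains rose together: Ech1 2.32-fold, Eci2 2.16-fold and Decr2 2.03-fold, with adjusted p from 1.15e-07 to 1.8e-07. Dhrs4, a peroxisomal carbonyl reductase, rose 2.51-fold (adjusted p = 1.25e-08). Pecr, a peroxisomal enoyl-CoA reductase, fell by 0.63 (SE 0.14, adjusted p = 0.00194). In α-oxidation, which removes 1 carbon from phytanic acid, the lyase Hacl1 rose 1.93-fold (adjusted p = 0.00053), whereas the hydroxylase Phyh was not called (-0.20 ± 0.12 SE, adjusted p = 0.233). The racemase Amacr was not called either (0.21 ± 0.10 SE, adjusted p = 0.144).

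Both carnitine acyltransferases and both transporters rose. Crat, which makes acetylcarnitine, measured 35.25, 53.4, 49.59 and 40.53 CPM under CMC and 355.0, 425.6, 479.7 and 389.4 CPM under pemafibrate, a rise of 9.22-fold without overlap (3.21 ± 0.15 SE, adjusted p = 5.45e-11). Crot, which makes carnitine esters of medium chains, rose 2.59-fold. Abcd3, an importer of branched and dicarboxylic acyl chains, measured 680.2, 638.0, 703.4 and 619.2 CPM against 2202, 2154, 2453 and 2262 CPM, with no overlap (1.78 ± 0.14 SE, adjusted p = 3.66e-08). Abcd2, a transporter of very long and polyunsaturated chains, spread widely in the vehicle group, at 3.75, 10.0, 31.0 and 34.1 CPM, against 39.0, 37.4, 60.6 and 46.1 CPM. Its call (1.21 ± 0.43 SE, adjusted p = 0.0384) was lost by DESeq2, on library totals (adjusted p = 0.0575) and in the fit of 2 groups. It was also lost in 4 of the 16 fits that left out 1 library, with adjusted p up to 0.112.

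Catalase and the ether lipid enzymes moved little. Cat measured 2881, 2584, 2803 and 3152 CPM under CMC and 2383, 3396, 3343 and 3001 CPM under pemafibrate, and the groups overlapped (0.09 ± 0.14 SE, adjusted p = 0.699). Agps and Gnpat, which start plasmalogen synthesis inside the organelle, rose by 0.36 ± 0.10 and 0.32 ± 0.08 on the log2 scale (adjusted p = 0.0117 and 0.00577). The Agps groups overlapped, and edgeR on library totals did not call it (0.28, adjusted p = 0.0575). The Gnpat groups did not overlap, and Gnpat was also called on totals (0.24, adjusted p = 0.0248). Far1, the reductase that supplies their fatty alcohol, was not called (0.08 ± 0.22 SE, adjusted p = 0.834).

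The peroxins moved unequally, both between roles and within some of them. All 3 that place proteins in the membrane rose: Pex19 (1.03 ± 0.09 SE), Pex3 (0.77 ± 0.08 SE) and Pex16 (0.71 ± 0.11 SE), with adjusted p from 8.67e-08 to 5.37e-05. Pex19, the soluble chaperone for membrane proteins, measured 134.4, 129.4, 157.8 and 149.8 CPM against 276.1, 302.7, 313.7 and 273.0 CPM. Each treated library was above every vehicle library.

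Of the import receptors and docking proteins, Pex5, Pex13 and Pex14 rose and Pex7 did not pass. Pex5 is the receptor for the common targeting signal at the end of the enzymes, and Pex13 and Pex14 dock it at the membrane. Pex13 measured 74.5, 68.6, 59.3 and 57.5 CPM against 125.8, 108.1, 126.8 and 117.3 CPM, without overlap (0.88 ± 0.12 SE, adjusted p = 1.3e-05). Pex7, the receptor for the rarer signal that thiolase and Phyh carry, had a log2 change of 0.01 ± 0.11 (adjusted p = 0.979).

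None of the 4 genes that recycle the receptors was called, the ubiquitin ligases Pex2 and Pex10, the ATPase Pex6 and its anchor Pex26, whose log2 changes lay between -0.20 and 0.14. Pex11a, which elongates and divides peroxisomes, had the largest peroxin rise. It measured 184.5, 147.7, 151.5 and 117.2 CPM under CMC and 864.6, 878.6, 908.7 and 880.4 CPM under pemafibrate (5.88-fold, 2.56 ± 0.17 SE, adjusted p = 2.22e-09). Its relative Pex11g was called lower (-0.40 ± 0.15 SE, adjusted p = 0.0448), and that call was lost in 10 of the 16 fits without 1 library, with adjusted p up to 0.139.

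**Figure D1:**
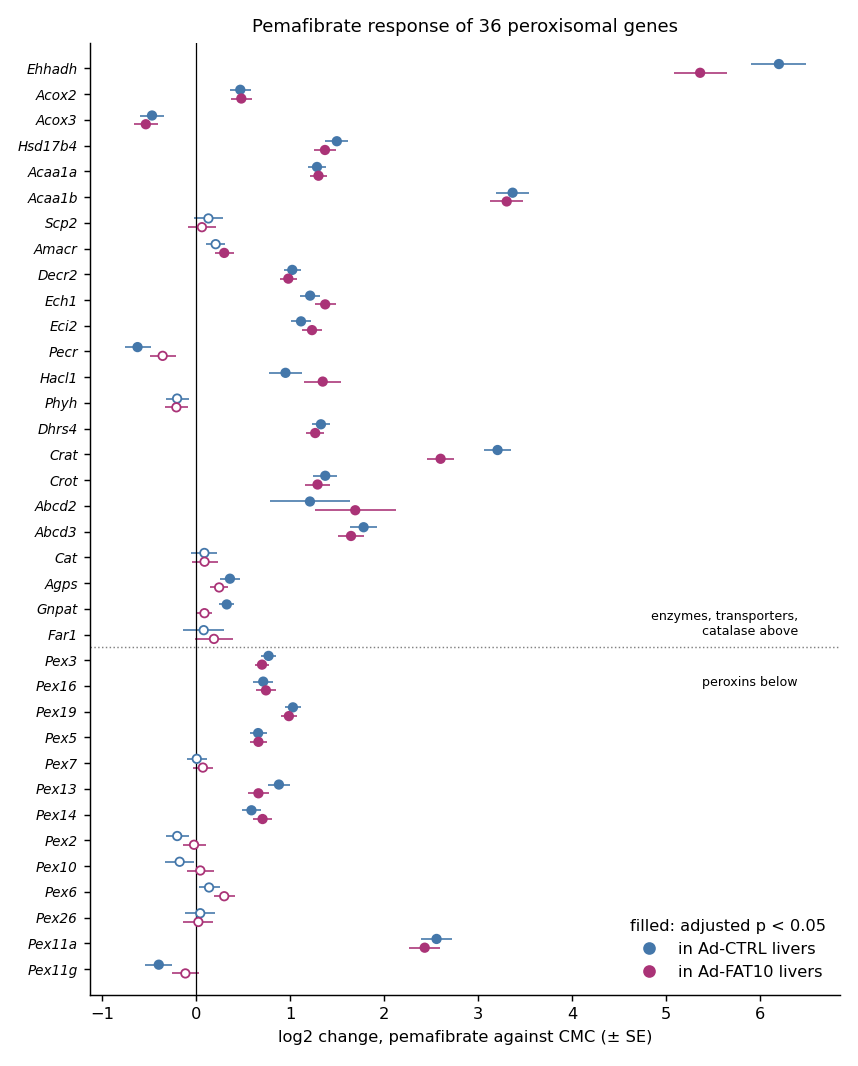
Log2 change with pemafibrate against CMC (horizontal axis, bars are SE) of each of the 36 genes in Ad-CTRL livers (blue) and Ad-FAT10 livers (purple), filled where the adjusted p was under 0.05. Ehhadh, Acaa1b, Crat and Pex11a lie farthest to the right in both, and Pex2, Pex10, Pex6 and Pex26 lie between -0.20 and 0.30.

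In Ad-FAT10 livers pemafibrate gave a similar list: 22 of the 36 genes were higher and 1 lower (63.9%), where 25.4% of all genes were called, 12.9% higher and 12.5% lower. Of these, 21 were the genes also higher in Ad-CTRL livers and Acox3 was lower in both, while the share of all genes called in both was not counted. The median log2 change was 0.68, against -0.01 over all genes. By role, 5 of 7 core genes, 6 of 8 auxiliary genes, both carnitine acyltransferases and both transporters rose, along with all 3 membrane assembly peroxins and 3 of 4 import and docking peroxins. None of the 4 recycling peroxins and none of the 3 ether lipid enzymes was called. Pex6 lay close to the threshold, with groups that did not overlap (0.30 ± 0.11 SE, adjusted p = 0.0585). DESeq2 called it (adjusted p = 0.0453), and so did edgeR on library totals (adjusted p = 0.0485). Agps (0.24 ± 0.10 SE, adjusted p = 0.0824) was called in the fit of 2 groups and in 1 of the 16 fits without 1 library.

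Ehhadh measured 457.9, 198.3, 242.1 and 177.0 CPM in Ad-FAT10 CMC and 8831, 11710, 11810 and 11810 CPM in Ad-FAT10 Pema, a rise of 41.1-fold (5.36 ± 0.28 SE, adjusted p = 5.06e-10). Acaa1b stood at 557.8, 269.3, 420.2 and 427.6 CPM and at 3859, 4306, 4141 and 4214 CPM (9.86-fold, 3.30 ± 0.18 SE, adjusted p = 5.47e-10). Crat measured 42.1, 38.0, 52.6 and 49.1 CPM and then 279.0, 274.4, 251.3 and 296.4 CPM (6.06-fold, 2.60 ± 0.14 SE, adjusted p = 5.47e-10). None of these pairs of groups overlapped.

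Abcd2 measured 7.57, 8.83, 12.8 and 18.6 CPM under CMC and 31.0, 44.8, 41.6 and 37.9 CPM under pemafibrate (1.69 ± 0.43 SE, adjusted p = 0.00733). Pex11a rose from 110.3, 74.56, 126.1 and 126.0 CPM to 680.5, 603.5, 491.3 and 579.9 CPM (2.43 ± 0.16 SE, adjusted p = 6.27e-09). Pex19 went from 128.3, 120.2, 120.0 and 120.4 CPM to 233.1, 255.3, 222.3 and 257.4 CPM (0.99 ± 0.09 SE, adjusted p = 2.21e-07). Treated and vehicle libraries were separate for all 3 genes.

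Pex16, which helps place membrane proteins, stood at 84.2, 101.2, 77.3 and 74.3 CPM under CMC and at 154.3, 133.4, 138.4 and 136.9 CPM under pemafibrate, again without overlap (0.74 ± 0.11 SE, adjusted p = 5.56e-05). The call for Amacr (0.30 ± 0.10 SE, adjusted p = 0.0401) was lost in 7 of the 16 fits without 1 library, with adjusted p up to 0.133. Pecr, which fell in Ad-CTRL livers, was not called here (-0.36 ± 0.14 SE, adjusted p = 0.0644), and its groups overlapped. DESeq2 called it lower (adjusted p = 0.0429), as did edgeR on library totals (0.0367) and with the replicate block (0.0329). It was also called without Ad-FAT10 Pema replicate 1 (adjusted p = 0.000713).

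**Figure D2:**
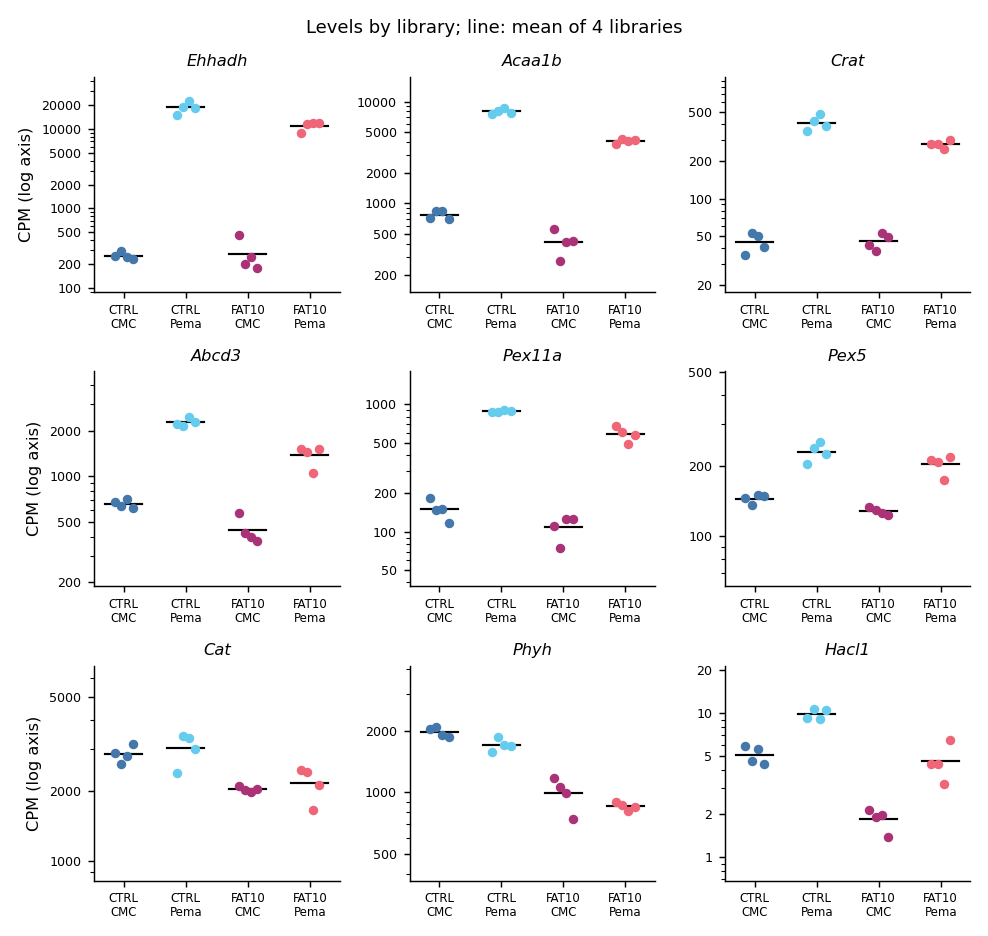
CPM on a log axis in every library (points) of the 4 groups for 9 of the genes, with the group mean as a line. Ehhadh, Acaa1b, Crat, Abcd3, Pex11a and Pex5 are high in both pemafibrate groups, while Cat and Phyh are lower in both Ad-FAT10 groups on this TMM scale.

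Whether pemafibrate acted differently on these genes in the presence of Ad-FAT10 was tested by the interaction. None of the 36 genes was called by edgeR, where 0.156% of all genes tested were, and DESeq2 called none of them either. An unadjusted edgeR p under 0.05 was reached by 2 of the 36, against 10.8% of all genes: Crat (-0.61 ± 0.19 SE, adjusted p = 0.244) and Ehhadh (-0.84 ± 0.33 SE, adjusted p = 0.374). Both differences are negative, the log2 rise being smaller in Ad-FAT10 livers. In the fits without 1 library they ran from -0.99 to -0.45 for Ehhadh and from -0.70 to -0.51 for Crat, and neither was called. For Acaa1b the difference was -0.06 ± 0.23 and for Pex11a -0.13 ± 0.22, intervals that leave room for unequal responses. The median over the 36 genes was 0.00, and 18 lay on each side of 0.

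Under CMC, Ad-FAT10 livers had lower levels of most of the 36 genes than Ad-CTRL livers when libraries were scaled by TMM. On that scale 23 were lower and 2 higher (69.4%), where 42.6% of all genes were called, 20.2% lower and 22.5% higher. The median log2 change was -0.47, against -0.01 over all genes. On library totals the 36 genes had 9 lower and 3 higher calls and a median of -0.19, while all genes had a median of 0.28, with 7.18% called lower and 43.1% higher. The median of the 36 genes thus lay below that of all genes on both scales, but most single calls depended on the scaling.

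Hacl1, the α-oxidation lyase, measured 5.87, 4.62, 5.59 and 4.42 CPM in Ad-CTRL CMC and 2.11, 1.91, 1.95 and 1.37 CPM in Ad-FAT10 CMC. The groups were separate (-1.48 ± 0.20 SE, adjusted p = 1.9e-05), also on library totals (-1.20, adjusted p = 5.59e-05). Its exons share 1540 of 4945 bases with another model on the same strand (GENCODE M21), and how reads that fit both were counted is not known, so its low count of 40 to 238 per library is uncertain. Phyh, the step before it, measured 2024, 2072, 1893 and 1852 CPM and then 1175, 1059, 992.6 and 742.9 CPM (-0.98 ± 0.12 SE, adjusted p = 1.12e-05, and -0.70 on totals).

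Acaa1b, whose libraries are given above, was lower by 0.90 on the log2 scale (SE 0.16, adjusted p = 0.00033, and -0.60 on totals). Decr2 measured 289.4, 266.4, 319.5 and 291.2 CPM in Ad-CTRL CMC and 201.4, 171.1, 181.5 and 166.0 CPM in Ad-FAT10 CMC, with no overlap (-0.70 ± 0.09 SE, adjusted p = 1.41e-05, and -0.41 on totals). All 8 auxiliary and α-oxidation genes were called lower on the TMM scale, of which Dhrs4 turned to 0.04 on totals and lost its call in 10 of the 16 fits without 1 library. The others still called lower on totals were Acaa1a, Amacr, Ech1, Eci2 and Pex14. Ehhadh and Crat were not called (0.08 ± 0.23 SE and 0.02 ± 0.14 SE, adjusted p = 0.812 and 0.903).

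Of the 13 peroxins 9 were lower on the TMM scale and none higher, where 20.2% of all genes were called lower. On library totals Pex14 alone of the 13 was called lower, where 7.18% of all genes were. The peroxin median was -0.375 on the TMM scale and -0.084 on totals. Pex11g measured 26.8, 23.5, 23.3 and 27.8 CPM in Ad-CTRL CMC and 17.1, 19.4, 14.3 and 15.4 CPM in Ad-FAT10 CMC (-0.62 ± 0.15 SE, adjusted p = 0.00251). Pex26 measured 75.7, 55.7, 60.0 and 71.6 CPM and then 50.5, 46.7, 38.1 and 37.0 CPM (-0.61 ± 0.16 SE, adjusted p = 0.00537). Pex14 measured 27.98, 23.8, 24.4 and 33.0 CPM and then 18.0, 19.3, 19.7 and 18.5 CPM (-0.53 ± 0.10 SE, adjusted p = 0.000541). None of the 3 overlapped between groups, but on library totals only Pex14 stayed called (-0.24, adjusted p = 0.0492), Pex11g (-0.33) and Pex26 (-0.33) were not, and Pex19, called lower on the TMM scale, turned to 0.07 and lost its call in 10 of the 16 fits without 1 library.

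The 2 genes called higher belong to ether lipid synthesis. Far1 measured 2.99, 3.46, 2.63 and 2.73 CPM in Ad-CTRL CMC and 5.09, 4.36, 4.12 and 3.91 CPM in Ad-FAT10 CMC (0.56 ± 0.21 SE, adjusted p = 0.04). Its call was lost in 6 of the 16 fits without 1 library and that of Agps (0.32 ± 0.10 SE, adjusted p = 0.0177) in 3. On library totals both were called higher, by 0.85 and 0.61, and so was Acox2, by 0.55.

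Under pemafibrate the comparison of the viruses gave 24 lower and 1 higher call among the 36 genes on the TMM scale (69.4%), where 41.7% of all genes were called, 20.5% lower and 21.2% higher. The median log2 change was -0.42, against -0.02 over all genes. Library totals gave 5 lower and 5 higher calls and a median of -0.06, with 5.59% of all genes called lower, 48.8% higher and a median of 0.34. Without Ad-FAT10 Pema replicate 1 the lower calls on the TMM scale rose to 30. On that scale 19 genes were lower and 1, Far1, was higher in both adenovirus comparisons. The share of all genes called in both was not counted, so these counts have no background. Both comparisons come from 1 fit with 1 estimate of the spread, although they share no library.

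Hacl1 measured 9.23, 10.7, 9.13 and 10.5 CPM in Ad-CTRL Pema and 4.40, 4.46, 3.23 and 6.51 CPM in Ad-FAT10 Pema (-1.09 ± 0.18 SE, adjusted p = 0.000128, and -0.73 on totals). Phyh measured 1566, 1867, 1700 and 1674 CPM and then 897.7, 871.5, 811.2 and 846.8 CPM (-0.99 ± 0.12 SE, adjusted p = 1.25e-05, and -0.63 on totals). Acaa1b was lower by 0.96 (SE 0.16, adjusted p = 0.000188, and -0.59 on totals). With Decr2 (-0.74 ± 0.09 SE, adjusted p = 1.01e-05, and -0.38 on totals), these 4 genes were called lower in both comparisons and on both scales. How many of all genes tested met the same conditions was not counted.

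Ehhadh, whose pemafibrate libraries are given above, was lower with Ad-FAT10 on the TMM scale (-0.76 ± 0.23 SE, adjusted p = 0.0145) but not called on totals (-0.39, adjusted p = 0.149). Abcd3 measured 1511, 1451, 1053 and 1521 CPM in Ad-FAT10 Pema, below its Ad-CTRL Pema libraries (-0.71 ± 0.14 SE, adjusted p = 0.000616, and -0.36 on totals, adjusted p = 0.0234). Pex26 measured 56.4, 87.6, 63.8 and 62.9 CPM and then 56.6, 44.1, 34.5 and 39.7 CPM, groups that overlapped in 1 library (-0.63 ± 0.16 SE, adjusted p = 0.00413). Pex13 measured 97.2, 86.5, 65.3 and 90.1 CPM in Ad-FAT10 Pema (-0.50 ± 0.11 SE, adjusted p = 0.00213), and Pex11a was lower by 0.59 (SE 0.16, adjusted p = 0.00597). On library totals Pex26, Pex13 and Pex11a were not called, at -0.27, -0.14 and -0.23, whereas Pex10, Pex5, Acox2, Agps and Far1 were called higher. Pex5, which was not called on the TMM scale (-0.18 ± 0.09 SE), stood at 0.19 on totals (adjusted p = 0.0457).

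**Figure D3:**
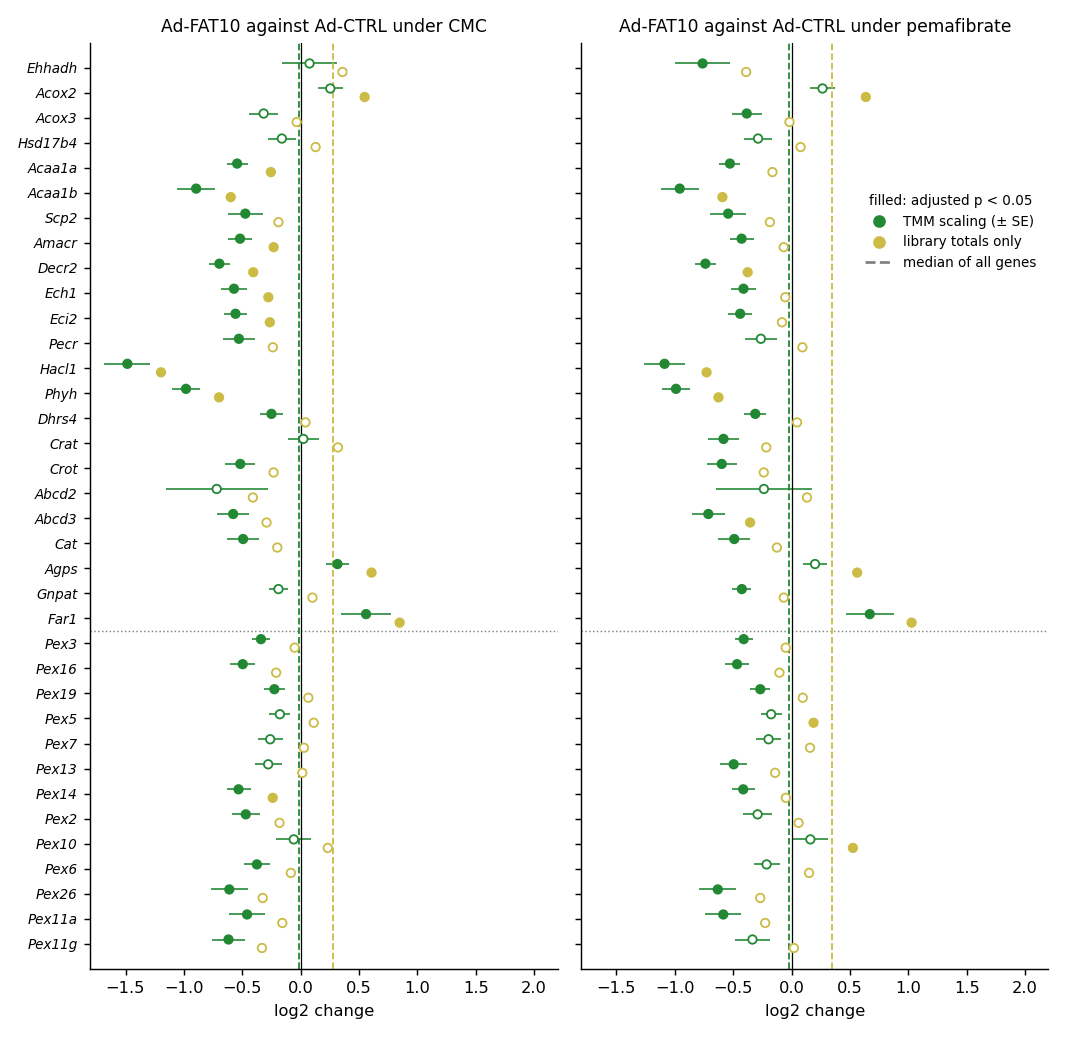
Log2 change of Ad-FAT10 against Ad-CTRL under CMC (left) and pemafibrate (right) for each gene with TMM scaling (green, bars are SE) and on library totals (yellow), filled where the adjusted p was under 0.05. Dashed lines mark the median of all genes on each scale, and most genes lie to the left of the line of their own colour.

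Other cell markers also moved with the virus, beside 20.2% of all genes called lower and 22.5% higher under CMC on the TMM scale. In Ad-FAT10 CMC against Ad-CTRL CMC, on the TMM scale, 4 of 8 hepatocyte markers were lower and their sum was 57120 to 69800 CPM against 80570 to 107900 CPM. All 5 tested neutrophil markers (36.8 to 90.1 against 7.77 to 16.1 CPM summed), all 6 T and NK cell markers (20.2 to 29.6 against 8.44 to 14.7 CPM) and all 5 proliferation markers (120.0 to 170.3 against 22.5 to 33.1 CPM) were higher. Of 6 resident macrophage markers 4 were lower and 1, Cd5l, was higher (0.77 ± 0.21 SE, adjusted p = 0.00644), and their sums overlapped, at 266.6 to 393.6 against 272.3 to 404.0 CPM. Lower calls covered 4 of 4 B cell (2.179 to 2.565 against 4.16 to 7.90 CPM), 4 of 5 endothelial (72.2 to 104.5 against 127.7 to 185.1 CPM) and 3 of 5 stellate cell markers (127.1 to 172.6 against 200.5 to 246.2 CPM). Of 5 cholangiocyte markers 2 were higher (41.9 to 156.9 against 36.4 to 44.2 CPM). On library totals the median log2 change of the hepatocyte markers was -0.27, against -0.56 on the TMM scale, and that of the cholangiocyte markers was 0.06, against -0.22. Of these markers Ly6g alone was at 0 in some libraries. Under pemafibrate the hepatocyte sum was 40500 to 61980 against 66510 to 94090 CPM, with 5 of 8 markers lower and a median of -0.60, or -0.23 on library totals. In whole liver, fewer hepatocytes and less RNA per hepatocyte cannot be told apart, and the part of these markers in the lower values of the 36 genes was not tested.

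The pemafibrate comparisons had marker changes of their own. Hepatocyte markers were lower for 5 of 8 in Ad-CTRL and 6 of 8 in Ad-FAT10 livers, while most of the 36 genes rose. Of all genes tested, 14.4% and 12.5% were called lower. In Ad-FAT10 livers all 5 tested neutrophil markers fell, to a sum of 17.2 to 23.9 CPM, and 4 of 5 proliferation markers fell, to 72.8 to 100.5 CPM. In Ad-CTRL livers no neutrophil marker was called, and 2 of 5 proliferation markers fell, Ccnb1 (-0.92 ± 0.25 SE) and Cdk1 (-0.67 ± 0.20 SE), while Mcm5 rose (0.62 ± 0.14 SE). Their part in the pemafibrate values was not tested.

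Enzymes and peroxins were then set side by side. In Ad-CTRL livers pemafibrate raised 16 of 23 enzyme, transporter and catalase genes (median log2 change 1.02) and 7 of 13 peroxins (0.59). In Ad-FAT10 livers it raised 15 of 23 (1.23) and 7 of 13 (0.66). The median log2 CPM of the enzymes exceeded that of the peroxins by 1.65 ± 0.14, 2.36 ± 0.09, 1.64 ± 0.10 and 2.19 ± 0.14 (SD, n = 4), the first pair being vehicle and pemafibrate with Ad-CTRL and the second the same with Ad-FAT10. The gap was wider in both pemafibrate groups and nearly equal in both vehicle groups. As the genes are not replicates, the classes were described and not tested.

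The 36 genes took 1.33% ± 0.0595 of all counts in Ad-CTRL CMC and 4.07% ± 0.258 in Ad-CTRL Pema, and 1.13% ± 0.114 and 3.26% ± 0.111 in the corresponding Ad-FAT10 groups (SD, n = 4). Ehhadh alone went from 0.0234% to 1.62% in Ad-CTRL and from 0.03% to 1.23% in Ad-FAT10 livers. Without it the other 35 genes went from 1.31% to 2.45% and from 1.1% to 2.02%. The peroxins went from 0.0946% to 0.187% and from 0.0903% to 0.179%.

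**Figure D4:**
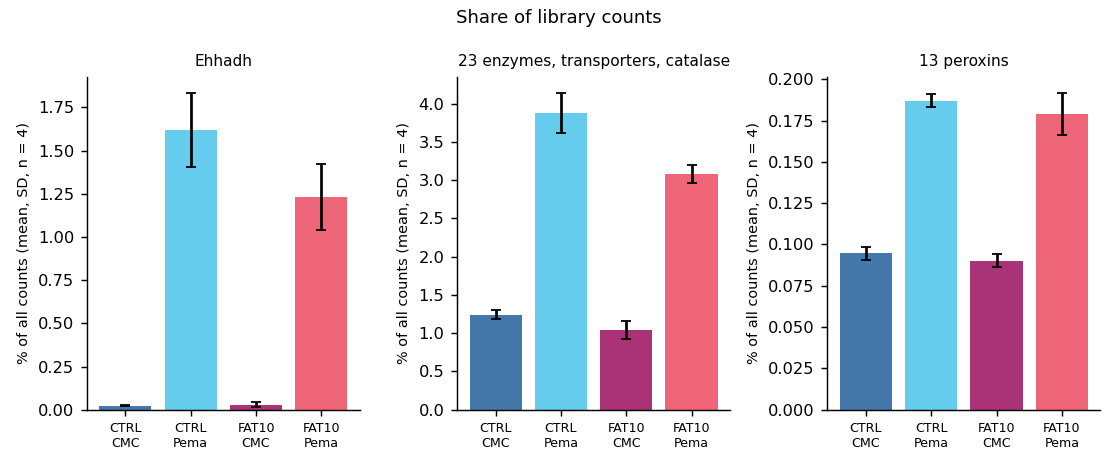
Share of all library counts (mean, bars are SD, 4 libraries per group) taken by Ehhadh, by the 23 enzyme, transporter and catalase genes and by the 13 peroxins, each panel with its own axis from 0. The peroxin share was 0.187% in Ad-CTRL Pema and 0.179% in Ad-FAT10 Pema, and the enzyme share was 3.88% and 3.08%.

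Per kilobase of exon (GENCODE M21), the order of levels changed with the drug. In Ad-CTRL CMC the highest were Scp2 (1125 CPM per kb), Cat (1093), Phyh (1036) and Acaa1b (396.8), with Ehhadh at rank 12 (85.5). Scp2, Cat and Phyh differed little. In Ad-CTRL Pema Ehhadh (6279 CPM per kb) and Acaa1b (4090) came first, followed by Scp2 (1231) and Cat (1160). In Ad-FAT10 Pema Ehhadh (3704) and Acaa1b (2105) also led. Far1 and Hacl1 were lowest in Ad-CTRL CMC, at 0.367 and 1.04 CPM per kb.

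Some members share exon bases with a gene on the other strand, and whether the counting used strand is not given in the sources used here. Acaa1b shares 224 of 1962 exon bases with Dlec1, which measured 1.69 CPM in Ad-CTRL CMC and 33.8 CPM in Ad-CTRL Pema, far below Acaa1b. Pex14 shares 1776 of 6272 bases with Gm17029 and Pex11g 1396 of 3397 bases with Gm44775, both on the other strand. The values of Pex14 and Pex11g are therefore less certain.

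A list of 38 other peroxisomal genes, of which 34 were tested, was read beside them. Pemafibrate raised 18 and lowered 4 in Ad-CTRL livers (median 0.41) and raised 17 and lowered 2 in Ad-FAT10 livers (0.28). Of all genes tested, 16.2% were called higher and 14.4% lower in Ad-CTRL livers, and 12.9% and 12.5% in Ad-FAT10 livers. The acyl-CoA thioesterases Acot4 (2.81 ± 0.20 SE and 2.82 ± 0.20 SE) and Acot8 (1.91 ± 0.14 SE and 1.62 ± 0.14 SE) and the dehydrogenase-like Hsdl2 (2.30 ± 0.13 SE and 2.22 ± 0.13 SE) rose in both. With Ad-FAT10, on the TMM scale, 18 fell and 1 rose under CMC and 19 fell and 1 rose under pemafibrate, among them the membrane channel Pxmp2 (-0.76 ± 0.12 SE and -0.86 ± 0.12 SE). Of all genes tested, 20.2% were called lower and 22.5% higher under CMC on that scale, and 20.5% and 21.2% under pemafibrate. On library totals the medians of the listed genes in these comparisons were -0.07 and 0.01.

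Mitochondrial β-oxidation, which takes over the shortened chains, had 16 of 16 genes higher with pemafibrate in Ad-CTRL livers (median 1.19) and 15 of 16 in Ad-FAT10 livers (1.29). Of all genes tested, 16.2% and 12.9% were called higher. Acadm, the medium-chain dehydrogenase, rose by 1.75 ± 0.11 and 1.80 ± 0.11 on the log2 scale (adjusted p = 8.73e-10 and 1.26e-09). With Ad-FAT10 12 of 16 and 10 of 16 were lower on the TMM scale, with medians of -0.40 and -0.36, or -0.11 and -0.01 on library totals. On the TMM scale 20.2% and 20.5% of all genes were called lower in these comparisons.

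Ppara, the gene of the receptor, rose with pemafibrate in Ad-CTRL livers, from 116.7 to 153.4 CPM under CMC to 141.2 to 228.3 CPM, ranges that overlapped (0.60 ± 0.16 SE, adjusted p = 0.00791). It was not called in Ad-FAT10 livers (0.27 ± 0.16 SE, adjusted p = 0.248), and the difference between these was not called (-0.33 ± 0.23 SE, adjusted p = 0.634). In Ad-FAT10 Pema Ppara measured 116.1 to 142.7 CPM and was lower than in Ad-CTRL Pema (-0.56 ± 0.16 SE, adjusted p = 0.00912), but was not called on library totals (-0.19, adjusted p = 0.264). Rxra, its partner, was lower with pemafibrate in both (-0.35 ± 0.13 SE and -0.43 ± 0.13 SE, adjusted p = 0.0429 and 0.0164), and the first call was lost in 9 and the second in 2 of 16 fits without 1 library.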

How the data were processed

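Gene counts per library were the deposited whole-number counts, 1 file per library for 16 liver libraries. Reads were aligned with STAR 2.7.6 to GRCm39 per the submitters' processing notes, which also name DESeq2 2.11.40.6 and 1.36.0. Per the labels' protocols, poly(A) RNA was used for libraries in which dUTP marks the second strand. No source used here gives the counting program, the annotation release or the strand setting. Ensembl identifiers were given symbols and exon lengths from GENCODE M21 (52083 of 55416 matched, 94.0%; 36 of 36 members), and no gene coordinates of that build were used. Promoters are RefSeq windows on GRCm38.p6.

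Counts were tested with edgeR 4.0.16 in R 4.3.3 (filterByExpr, TMM, 1 mean per group, quasi-likelihood, 16 libraries, 12 residual degrees of freedom), with Benjamini-Hochberg adjustment over 14770 genes, and were called at an adjusted p under 0.05. The script was checked on simulated counts. CPM are counts divided by library total times TMM factor. SE was derived from the log2 change and its F statistic. DESeq2 1.42.0, other size factors, no filter, a replicate block, 2-group fits and left-out libraries were alternatives. Fits on library totals were added after seeing the data.

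No pairing by the replicate numbers n1 to n4 was seen. Over 24 same-numbered pairs the correlation of deviations ran from -0.172 to 0.172 (median 0.0041), with 3 pairs over 0.1. The labels do not say what the numbers mean, and these correlations cannot exclude a shared batch. The 36 genes and all lists were chosen with earlier results of these data known. Library values are printed for up to 4 called enzymes and 3 called peroxins with the largest change in each comparison. From each other list, up to 4 genes with the smallest p may be named. Library values of Cat and Far1, and of Abcd3 with Ad-FAT10, were added after they were seen. The 3-count floor covers counting error only.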

Additional observations from a re-analysis of the deposited data

Results flagged for a closer look

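In 9 of 144 groups of 4 libraries, over the 36 genes and 4 groups, 1 library lay apart from the other 3 by a gap, given below as a fraction of the group's range, above Dixon's 95% limit. Chance gives about 1 in 20 such groups.

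Of the 9, 3 were Ad-FAT10 Pema replicate 1. Ehhadh was low there, at 8831 CPM against 11710 to 11810 (0.971), while Dhrs4 was high, at 415.3 CPM against 329.7 to 342.4 (0.837), and Crot was high, at 1179 CPM against 880.9 to 923.7 (0.837). Abcd3 was low in Ad-FAT10 Pema replicate 3, at 1053 CPM against 1451 to 1521 (0.872).

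In Ad-CTRL CMC replicate 4, Scp2 was low at 3314 CPM against 4075 to 4180 (0.89) and Eci2 was low at 177.9 CPM against 208.8 to 213.1 (0.886). Pex16 was low in Ad-CTRL CMC replicate 2, at 97.7 CPM against 123.5 to 127.5 (0.882), and Acox3 in Ad-CTRL Pema replicate 1, at 22.98 CPM against 29.2 to 30.4 (0.857). Pex19 was high in Ad-FAT10 CMC replicate 1, at 128.3 CPM against 120.0 to 120.4 (0.945), a small difference in absolute terms.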

How the results depend on the processing

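Without 1 library in turn, 24 of 26 calls for pemafibrate in Ad-CTRL, 22 of 23 in Ad-FAT10, 19 of 25 for Ad-FAT10 under CMC and 22 of 25 under pemafibrate held in all 16 fits. The adenovirus calls changed most on library totals. There the lower calls among the 36 genes went from 23 to 9 under CMC and from 24 to 5 under pemafibrate, and the higher calls under pemafibrate from 1 to 5, since the scale shifts with the virus. Signs turned for Dhrs4 (0.041 under CMC, 0.047 under pemafibrate), Pex19 (0.066 and 0.096) and Pex5 (0.188 under pemafibrate). The single lower call for pemafibrate in Ad-FAT10 livers became 2 by DESeq2, on library totals and with the replicate block. The 2 higher calls for Ad-FAT10 under CMC became 1 with relative log expression factors and 1 with the block, and the 1 under pemafibrate became 2 in the fit of 2 groups. All genes called in the interaction went from 23 to 116 by DESeq2 and 93 without the filter, while none of the 36 was called in either. The causes were not tested. Without 1 library, the higher calls ran from 22 to 23 and 21 to 24 for pemafibrate (Ad-CTRL, Ad-FAT10) and from 0 to 3 and 0 to 2 for Ad-FAT10 (CMC, pemafibrate). The lower calls ran from 2 to 3, 1 to 2, 20 to 26 and 22 to 30 in that order, and all genes called in the interaction from 11 to 36. No pairing by replicate number was seen, and 4 of 16 libraries correlated best with their own number. With the block, counts of higher and lower calls were 23 and 3, 22 and 2, 1 and 21, 1 and 26 in that order, and none in the interaction. Among 180 member changes, 42 that were not called changed sign in some setting. Low counts limit Far1, Hacl1, Abcd2 and Pex10, which had under 100 counts in their lowest library.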
